A study of Mus musculus with 6 samples.

Results

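The epidermal differentiation complex is a cluster of genes whose products build the cornified layer of the skin. Its members were taken as every probe set annotated to exactly 1 gene whose symbol starts with Lce, Sprr or S100a, or is one of the named single genes of the complex such as Ivl, Lor and Crnn. This gave 57 probe sets for 56 genes, of 19938 genes measured, and where a gene had several probe sets the one with the highest mean stood for it. The members were 19 late cornified envelope genes (Lce), 13 small proline-rich genes (Sprr), 14 S100a genes, 6 genes of the fused type (Crnn, Flg2, Hrnr, Rptn, Tchh and Tchhl1), and Ivl, Lor, Crct1 and Pglyrp3. The filaggrin gene Flg, Sprr2a1, Sprr2a2, Sprr2a3 and Lce3d were not among the genes found by this rule.

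The samples were keratinocytes taken by laser capture from the tip of the epithelial tongue of mouse skin wounds on day 3, with E-cadherin staining used to show them. Diabetic mice had received a diet rich in fat and fructose for 16 weeks from 8 weeks of age, and normal mice a control diet for the same time. Each group had 3 arrays, named as biological replicates, and each array held cells pooled over the sections of 1 sample. No label states a strain, or that each sample came from its own mouse, so the tests speak of the spread among these arrays, which may be technical. The diabetes was a diet model, and captured tissue can hold other cells besides keratinocytes. Each value is a log2 signal of a probe set, and a difference is the diabetic mean less the normal mean (n = 3 arrays in each group).

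As background, keratinocytes that leave the basal layer switch on the complex in order. Involucrin and the small proline-rich proteins are among the early parts of the cornified envelope, the protein shell cross-linked by transglutaminases under the cell membrane. Loricrin and the late cornified envelope proteins are added afterwards, and proteins related to filaggrin bundle keratin filaments. S100 proteins are small calcium-binding proteins, and several of them are produced by keratinocytes of wounded or inflamed skin. Migrating keratinocytes at a wound edge are known to put terminal differentiation aside while producing some envelope precursors, small proline-rich proteins among them.

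Upstream sequences are shown first because close relatives within the complex share probes and regulatory sequence, and because the members with the smallest p-values came from the Sprr2, Lce1 and Lce3 groups. The sequences are the 250 bases before the annotated start, 5′ to 3′ on the gene's strand, from RefSeq (GRCm38.p6). Capitals mark matches, on either strand, to TGANTCA (the AP-1 motif), ATTTGCAT (the octamer motif), TATAAA (the TATA box) and AATAAAA, an A-rich motif added after the Lce sequences had been seen. AATAAAA and TATAAA can overlap.
Sprr2d, chr3:92338890-92339139, plus strand: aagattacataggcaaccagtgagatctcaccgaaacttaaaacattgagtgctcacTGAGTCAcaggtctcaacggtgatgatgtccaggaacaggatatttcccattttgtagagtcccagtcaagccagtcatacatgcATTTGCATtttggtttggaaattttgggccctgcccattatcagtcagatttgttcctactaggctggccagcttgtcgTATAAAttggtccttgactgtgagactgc
Sprr2e, chr3:92351893-92352142, plus strand: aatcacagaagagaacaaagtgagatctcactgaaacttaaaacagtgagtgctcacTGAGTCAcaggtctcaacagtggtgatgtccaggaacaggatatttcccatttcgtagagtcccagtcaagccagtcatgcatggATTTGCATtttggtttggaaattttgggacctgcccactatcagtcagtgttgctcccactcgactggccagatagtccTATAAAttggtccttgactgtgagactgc
Sprr2h, chr3:92385435-92385684, plus strand: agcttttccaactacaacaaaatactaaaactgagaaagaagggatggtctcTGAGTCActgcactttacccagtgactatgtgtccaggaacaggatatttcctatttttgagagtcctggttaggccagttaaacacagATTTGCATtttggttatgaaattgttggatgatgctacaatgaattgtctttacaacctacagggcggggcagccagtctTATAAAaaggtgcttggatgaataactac
Lce1b, chr3:92656927-92657176, minus strand: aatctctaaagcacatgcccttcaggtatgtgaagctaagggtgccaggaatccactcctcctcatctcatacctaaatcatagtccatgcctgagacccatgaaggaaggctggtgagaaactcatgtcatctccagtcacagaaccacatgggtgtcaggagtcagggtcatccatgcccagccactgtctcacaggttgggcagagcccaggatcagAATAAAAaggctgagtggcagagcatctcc
Lce1i, chr3:92778900-92779149, minus strand: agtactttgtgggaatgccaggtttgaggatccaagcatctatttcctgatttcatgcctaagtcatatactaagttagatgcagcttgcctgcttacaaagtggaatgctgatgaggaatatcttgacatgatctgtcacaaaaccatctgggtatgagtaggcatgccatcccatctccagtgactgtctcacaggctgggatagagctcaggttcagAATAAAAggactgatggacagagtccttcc
Lce3b, chr3:92932729-92932978, plus strand: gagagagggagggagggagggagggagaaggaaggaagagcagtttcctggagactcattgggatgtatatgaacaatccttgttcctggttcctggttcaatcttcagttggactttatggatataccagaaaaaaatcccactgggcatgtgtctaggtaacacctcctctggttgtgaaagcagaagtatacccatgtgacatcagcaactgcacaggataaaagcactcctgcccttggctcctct

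All 7 Sprr2 members with an entry in the promoter table held the AP-1, octamer and TATA motifs. In Sprr2e these began 193, 108 and 29 bases before the start, and in Sprr2h 198, 109 and 29 bases before it. The TATA box began 29 bases before the start in each of the 7. Over the 21 pairs among these genes, upstream identity in a global alignment ran from 60.1% to 89.3% with a median of 65.8%, and the highest was that of Sprr2d and Sprr2e. The 12 Lce1 promoters held no AP-1 or octamer match, while 9 held AATAAAA, beginning 30 to 32 bases before the start. The upstream sequences of Sprr2a1 and Sprr2a2, which are listed together on 1 of the shared probe sets described below, were identical over 250 of 250 bases. Those of Sprr2a1, Sprr2a2 and Sprr2a3, which are no members because their probe sets list several genes, held 0 matches to the AP-1, octamer and TATA motifs. They were only 48.0% to 52.8% identical to those of the 7 members, so the annotated starts may not be equivalent. The absence of matches holds for these 250 bases only.

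Promoters were matched by gene ID for 48 of 56 members, with 52 promoters because some genes have several. Of these 52, 32.7% held the AP-1 motif, 13.5% the octamer, 40.4% the TATA box and 26.9% AATAAAA. In all 32851 promoters of the table, cut to the same length, the shares were 6.75%, 1.60%, 12.4% and 7.76%. Members share sequence by descent, so these shares are descriptions, and a match is not a site of binding.

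**Figure D1:**
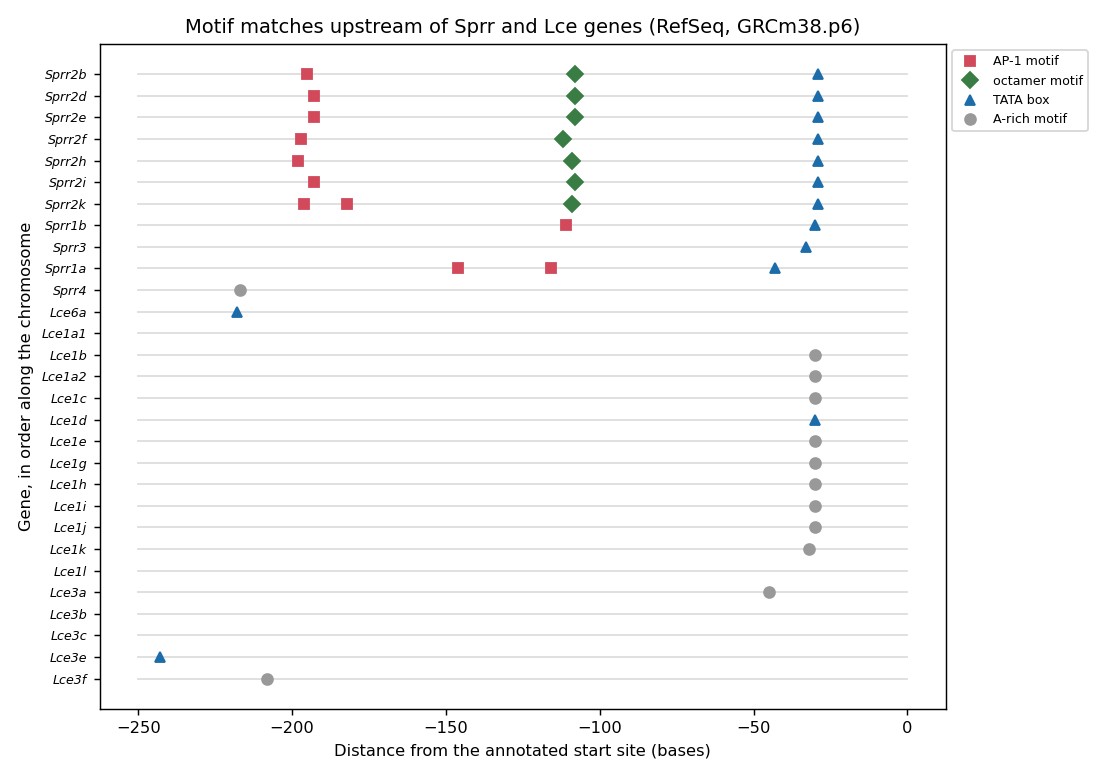
Positions of motif matches in the 250 bases before the annotated start (horizontal axis, bases) for the Sprr and Lce members with a promoter entry, 1 row per gene in order along the chromosome. Each point is the first base of a match, and the 7 Sprr2 rows share a column of TATA boxes 29 bases before the start, with octamer and AP-1 matches further upstream.

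Signals of the members lay mostly near background on these arrays. A background limit was set on each array as the 95th percentile of 1194 chemosensory receptor genes (olfactory and vomeronasal), taken as silent in skin, and lay between 1.98 and 2.12. The limit was 1.98 and 2.01 on diabetic replicates 1 and 2, and 2.11 or 2.12 on the other arrays. Counts by array therefore also depend on it. Only 5 of 56 members (8.93%) exceeded it on all 6 arrays and 28 on none, against 17.4% and 51.5% of all genes. The members above it were 16, 16 and 11 on diabetic replicates 1, 2 and 3 and 12, 14 and 12 on the normal arrays. For all genes the shares above it were 35.3%, 36.6% and 29.4% and 27.4%, 28.4% and 28.7%. With the 99th percentile as the limit, 0 members stayed above it on all arrays. At or below the limit only a bound on the level is known, and differences between such signals can understate differences in RNA. Fewer cells of a type and less RNA per cell cannot be told apart in captured tissue.

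The labelled cell type was weakly marked. Of 18 keratinocyte markers, Krt15, Sfn, Itgb4 and Krt10 exceeded the limit on all arrays, and 6 exceeded it on none, among them Cdh1, which encodes E-cadherin. The linear signals of these 18 markers summed to between 76.4 and 82.8 on the diabetic and between 79.6 and 90.9 on the normal arrays. Among other cells, 8 skeletal muscle markers summed higher on diabetic arrays (46.0 to 53.2 against 41.3 to 45.3), with 4 of 8 above the limit throughout. The sums were lower on diabetic arrays for 15 neutrophil markers (48.0 to 50.1 against 51.3 to 57.6), 11 macrophage markers (35.4 to 36.6 against 37.6 to 38.3) and 4 melanocyte markers (15.0 to 16.2 against 16.3 to 17.4). Of these, 1 neutrophil, 1 macrophage and 0 melanocyte markers exceeded the limit on all arrays. The sums of the groups did not overlap for these 4 lists, but in each list leaving out some single marker removed the separation. All 8 muscle markers were higher in diabetic samples, against 48.7% of all genes. Of these 8, 4 did not overlap between groups, against 10.7% of all genes. An unadjusted p under 0.05 in limma was met by 2 of the 8 (5.56% of all genes), and 0 passed adjustment. These 2 were Myh2 and Myot, which exceeded the limit on 1 and 0 of the 6 arrays. In the other lists, 10 of 15 neutrophil, 6 of 11 macrophage and 3 of 4 melanocyte markers were lower. With Cxcl2 left out, the 14 other neutrophil markers summed to 44.6 to 47.2 on diabetic and 47.1 to 47.8 on normal arrays, which overlapped. The groups also overlapped without Fcgr1 in the macrophage list and without any one of Dct, Tyrp1 and Mlana in the melanocyte list. In the muscle list they overlapped only without Mylpf, with 39.10 on the lowest diabetic and 39.13 on the highest normal array. The part of these lists in the member differences was not tested.

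No member passed the adjusted threshold in diabetic against normal keratinocytes, and the members were evenly divided in direction. Of 56 members 28 were higher and 28 lower in diabetic samples, and of all genes 48.7% were higher. The 28 members above the background limit on no array had 16 higher and 12 lower. The 5 above it on all arrays had 1 higher and 4 lower, each difference smaller than its SE. Of all genes above it on all arrays, 55.0% were higher. The median difference was -0.00028 for members and -0.0039 over all genes. In limma with Benjamini-Hochberg adjustment over all genes, 0 members passed an adjusted p of 0.05, the smallest being 0.780, and 0 of all genes passed (0% called). The unadjusted threshold of 0.05 was met by 5 members, 2 higher (Sprr2e and Lce1i) and 3 lower (Sprr2h, Lce3b and Lce1b), which is 8.93% of members. Over all genes 5.56% were called so, 2.64% higher and 2.92% lower in diabetic samples. The 5 members became 3 without diabetic replicate 1 and 9 without diabetic replicate 2 or normal replicate 3, and Sprr2e, Sprr2h and Lce3b were among them with any 1 array left out. The share of all genes called in those fits is not given here. Across members, 20 of 56 differences changed sign and 51 moved by over 1.5 times when some array was left out; the 5 that did neither were Sprr2e, Sprr2h, Lce3a, Lce3b and Rptn. The arrays of the groups did not overlap for 4 members (Sprr2e, Sprr2h, Lce3b and Rptn), or 7.14%, against 10.7% of all genes (5.02% higher and 5.66% lower). Of the 56, 0 reached a difference of 1.5-fold (0.316% of all genes did, and 0.256% also had an unadjusted p under 0.05), and the 95% confidence interval lay within 2-fold in either direction for 55, the exception being Lce3c (-1.01 to 0.58).

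**Figure D2:**
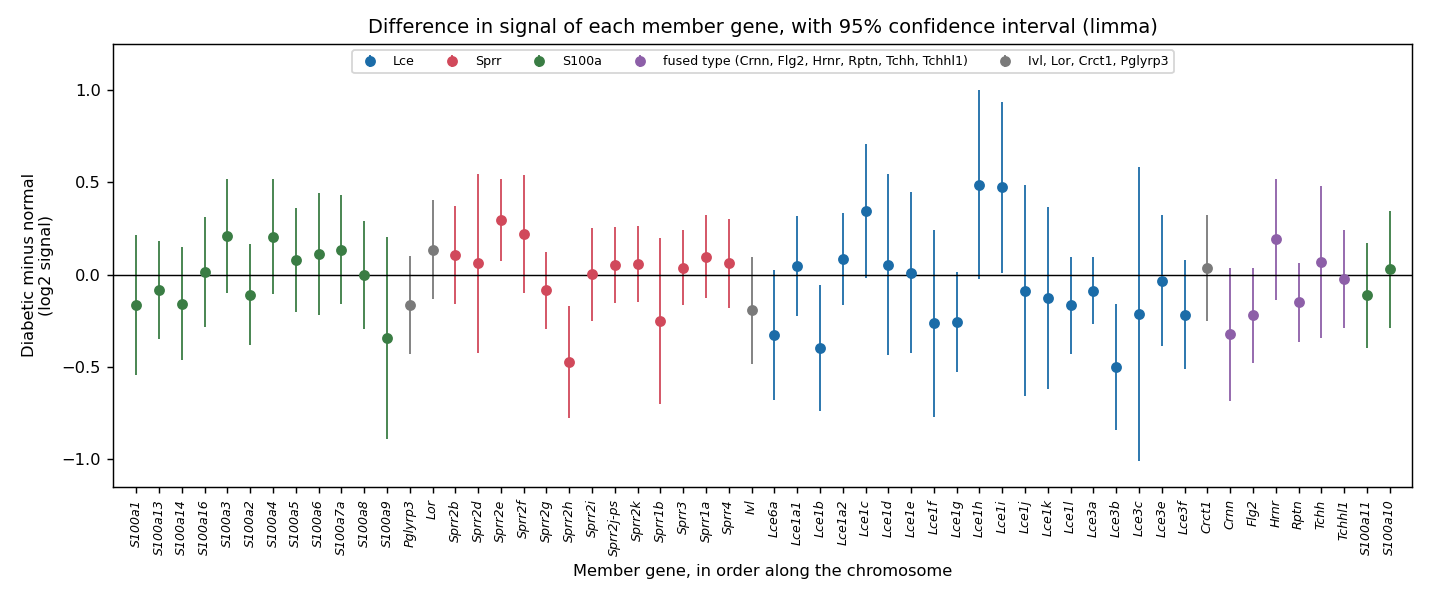
Diabetic minus normal difference (vertical axis, log2 signal) with its 95% confidence interval from limma for each of the 56 members, in order along the chromosome and coloured by family. Intervals of Sprr2e, Sprr2h, Lce1b, Lce1i and Lce3b exclude 0 before adjustment, and neighbouring genes lie on both sides of 0.

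Small proline-rich genes encode early envelope precursors that bridge other envelope proteins. Of the 13 members 10 were higher and 3 lower in diabetic samples, with a median difference of 0.06. Sprr2e measured 1.45, 1.55 and 1.64 in diabetic samples and 1.20, 1.18 and 1.36 in normal samples. Every diabetic array lay above every normal one, and the difference was 0.30 (SE 0.10, adjusted p 0.790 in limma). Sprr2h measured 1.26, 1.33 and 1.67 in diabetic samples and 1.74, 1.83 and 2.11 in normal samples. Here every diabetic array lay below every normal one, with a difference of -0.47 (SE 0.14, adjusted p 0.780 in limma). Both genes stayed at or below the background limit on all 6 arrays. These relatives, whose upstream motifs are shown above, therefore had unadjusted differences of opposite sign.

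The other Sprr members showed smaller differences relative to their spread. Sprr2d, whose upstream sequence was the closest to that of Sprr2e, measured 1.64, 1.91 and 2.06 in diabetic samples and 1.26, 2.36 and 1.81 in normal samples. Its groups overlapped, and the difference was 0.06 (SE 0.22), running from -0.21 without normal replicate 1 to 0.34 without normal replicate 2. Sprr1b, long known as a marker of squamous differentiation, measured 1.94, 1.24 and 1.75 in diabetic samples and 2.18, 2.05 and 1.46 in normal samples, with a difference of -0.25 (SE 0.21). Sprr2f measured 1.83, 2.18 and 1.96 in diabetic samples and 1.79, 2.00 and 1.52 in normal samples, with a difference of 0.22 (SE 0.15). Its groups overlapped, with diabetic replicate 2 alone above the limit. Sprr1a, a relative also induced by injury in other tissues, differed by 0.10 (SE 0.10), and Sprr3, known from oral and oesophageal epithelium, by 0.04 (SE 0.09). The remaining Sprr2 members, Sprr2b, Sprr2g, Sprr2i, Sprr2j-ps and Sprr2k, and Sprr4 lay between -0.08 and 0.11. Of the 13, 10 were above the limit on no array.

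Probe sets annotated to several Sprr2 genes at once, which lie outside the rule for members, gave a different picture of level and spread. They cannot be assigned to 1 gene and were fitted together with all probe sets, a step added after the data were seen. Probe set 10493856, listing 2 Sprr2 genes, measured 7.56, 5.20 and 5.56 in diabetic samples and 4.11, 6.71 and 4.15 in normal samples. Every array was above the background limit, and diabetic replicate 1 and normal replicate 2 were the highest of their groups. Normal replicate 2 lay above diabetic replicates 2 and 3, so the groups overlapped. The difference was 1.12 (SE 0.87, 95% confidence interval -0.94 to 3.17, adjusted p 0.893 in limma). Probe set 10493858 held identical values on all arrays and is counted once.

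Probe set 10493850, listing 4 Sprr2 genes, had the same order of arrays within each group. It measured 6.84, 4.19 and 4.53 in diabetic samples and 3.02, 5.41 and 3.11 in normal samples, with a difference of 1.34 (SE 0.88, interval -0.73 to 3.41, adjusted p 0.885 in limma). Single arrays set its size. Without diabetic replicate 1 the differences of probe sets 10493850 and 10493856 were 0.52 and 0.39, without normal replicate 2 they were 2.12 and 1.98, and with other arrays left out they ran from 0.93 to 1.84 and from 0.68 to 1.57. No adjusted p in these fits was under 0.713. The intervals are wide enough to hold no difference and a difference of several-fold.

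**Figure D3:**
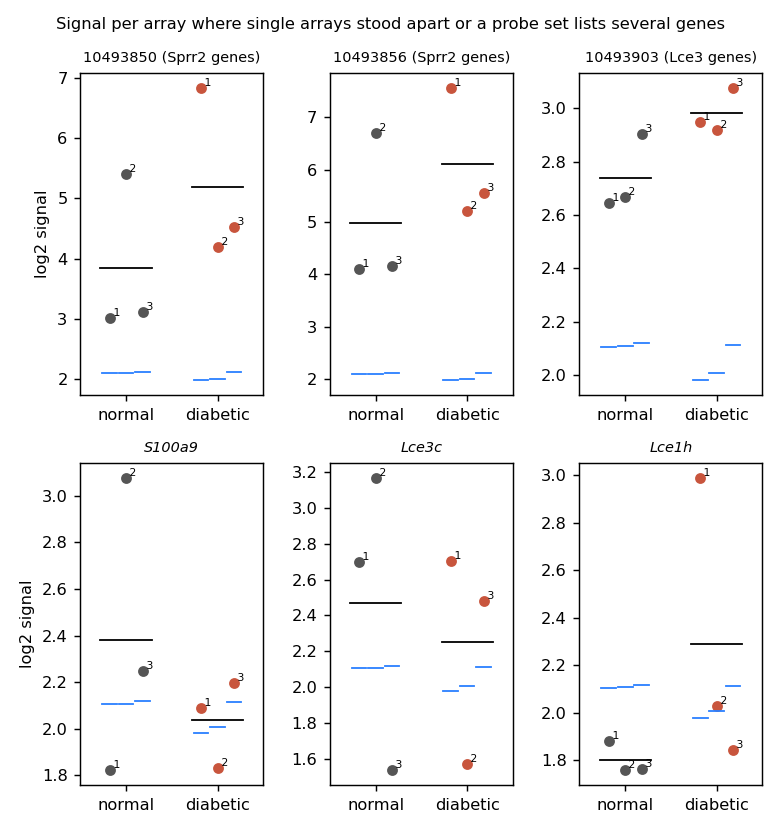
Log2 signal (vertical axis) on each of the 3 normal and 3 diabetic arrays for probe sets listing several Sprr2 or Lce3 genes and for S100a9, Lce3c and Lce1h. Digits are replicate numbers, black lines group means and blue lines each array's background limit. Normal replicate 2 is the highest normal array for both Sprr2 probe sets, S100a9 and Lce3c, and diabetic replicate 1 the highest diabetic array for both Sprr2 probe sets and Lce1h.

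Late cornified envelope genes, whose products are cross-linked into the envelope last, were the most variable members. Of 19 measured, 7 were higher and 12 lower in diabetic samples, with a median difference of -0.09. Their median standard deviation within a group was 0.28, against 0.15 over all genes and 0.10 for the Sprr members. Above the background limit on no array were 8 of 19 Lce and 10 of 13 Sprr members. The shared Sprr2 probe sets, which are no members and were above it throughout, had standard deviations of 1.27 to 1.49 within a group. Ratios of at least 5 to 4 in linear signal, in either direction, were found for 6 of the 19 Lce members and for 9 of all 56 members (16.1%), against 4.29% of all genes. These were Lce1b, Lce1c, Lce1h, Lce1i, Lce3b and Lce6a, and outside the family Sprr2h, S100a9 and Crnn.

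In the Lce1 group, 7 of 13 members were higher and 6 lower. Lce1i measured 1.92, 1.15 and 1.99 in diabetic samples and 1.11, 1.58 and 0.95 in normal samples. Diabetic replicate 2 lay below normal replicate 2, and the difference was 0.47 (SE 0.21, adjusted p 0.887 in limma), at or below the background limit throughout. It was 0.74 without diabetic replicate 2. Lce1b measured 1.73, 2.14 and 1.92 in diabetic samples and 2.09, 2.30 and 2.59 in normal samples, overlapping through diabetic replicate 2. Its difference was -0.40 (SE 0.16, adjusted p 0.844 in limma), and it exceeded the limit on 1 diabetic and 2 normal arrays.

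Single arrays strongly moved the differences of several other Lce1 members. Lce1h measured 2.99, 2.03 and 1.84 in diabetic samples and 1.88, 1.76 and 1.76 in normal samples, with a difference of 0.49 (SE 0.23) that was 0.14 without diabetic replicate 1. Lce1c was at 2.19, 1.54 and 1.53 on the diabetic arrays, and its difference of 0.34 (SE 0.17) was 0.12 without the same array. On the normal side, Lce1f was at 2.32, 1.40 and 1.23, with replicate 1 high, and Lce1d at 1.70, 1.56 and 2.58, with replicate 3 high. Without those arrays the differences were 0.07 for Lce1f and 0.37 for Lce1d. Different arrays were thus the high ones for relatives within 1 group. Lce1j and Lce1k exceeded the background limit on all 6 arrays. Lce1j measured 2.86, 3.24 and 3.10 in diabetic samples and 2.94, 3.89 and 2.64 in normal samples, with a difference of -0.09 (SE 0.26). Lce1k measured 2.38, 2.52 and 3.23 in diabetic samples and 2.52, 3.18 and 2.81 in normal samples, with a difference of -0.13 (SE 0.23). The groups overlapped for both, and the differences were positive without normal replicate 2 (0.28 and 0.05) and without diabetic replicate 1 (0.01 and 0.04). The remaining Lce1 members, Lce1a1, Lce1a2, Lce1e, Lce1g and Lce1l, and also Lce1d and Lce1f, differed by between -0.26 and 0.09.

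The 5 single-gene Lce3 members, relatives of the human genes induced in disturbed skin barrier, had lower means in diabetic samples, with a median difference of -0.22. For 2 of the 5, Lce3c and Lce3e, the sign turned when 1 array was left out. Lce3b measured 1.68, 1.58 and 1.43 in diabetic samples and 2.28, 2.22 and 1.69 in normal samples, without overlap. Normal replicates 1 and 2 were above the background limit and no other array was, with a difference of -0.50 (SE 0.16, adjusted p 0.780 in limma). Lce3c measured 2.70, 1.57 and 2.48 in diabetic samples and 2.70, 3.17 and 1.54 in normal samples. In each group 2 arrays were above the limit and 1 below it, and the difference was -0.22 (SE 0.37). It was 0.13 without normal replicate 2, 0.12 without diabetic replicate 2 and -0.68 without normal replicate 3. Lce3a, Lce3e and Lce3f differed by -0.09, -0.03 and -0.22 and were above the limit on no array, and Lce3e was 0.11 without normal replicate 2. Probe set 10493903, annotated to 6 Lce3 genes at once, went the other way. It measured 2.95, 2.92 and 3.08 in diabetic samples and 2.65, 2.67 and 2.90 in normal samples, all above the limit and without overlap, a difference of 0.24 (SE 0.14, adjusted p 0.877 in limma). Lce6a, the remaining family member, measured 1.76, 1.75 and 1.95 in diabetic samples and 2.52, 2.06 and 1.86 in normal samples, with a difference of -0.33 (SE 0.16) that was -0.14 without normal replicate 1.

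**Figure D4:**
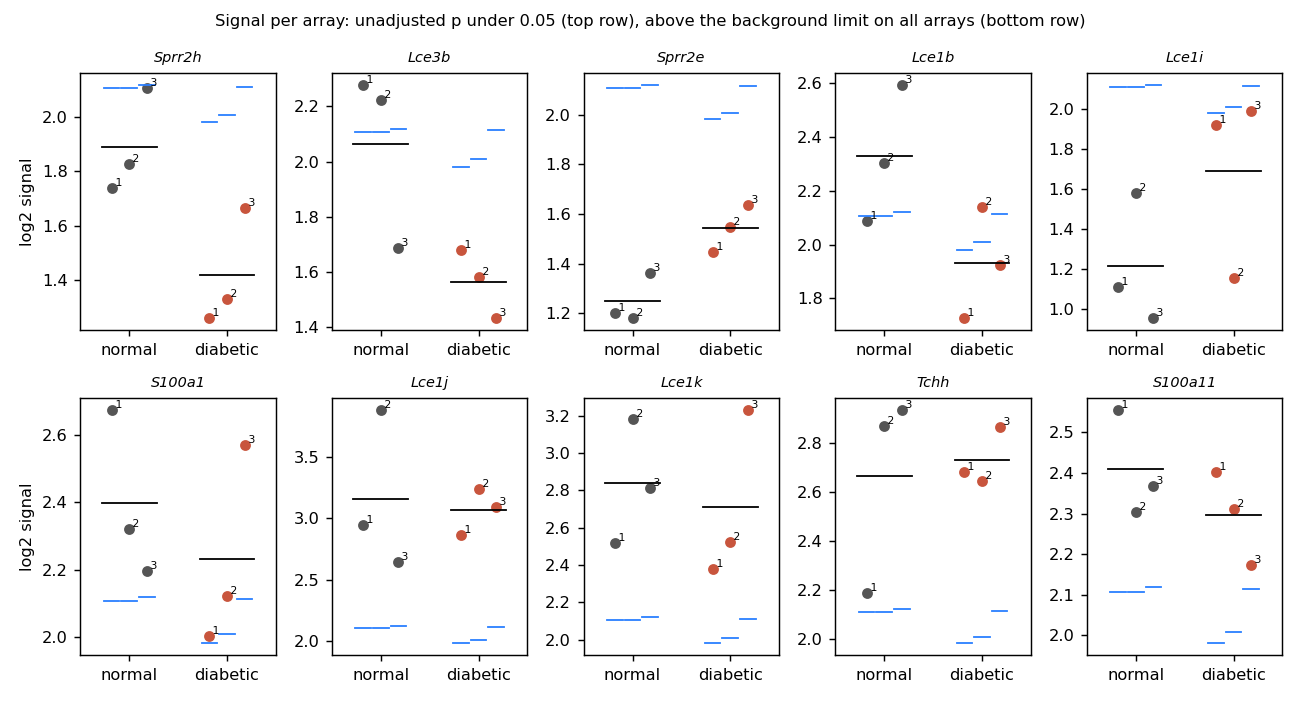
Log2 signal (vertical axis, its own range in each panel) on the 3 normal and 3 diabetic arrays for the 5 members with an unadjusted p under 0.05 (top) and the 5 above the background limit on all arrays (bottom). Digits are replicate numbers, black lines group means and blue lines each array's background limit. In the top row, the arrays of the groups do not overlap for Sprr2h, Lce3b and Sprr2e, and most points lie under the limit.

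The single envelope genes showed small differences in signal. Involucrin (Ivl), the early scaffold of the envelope, measured 1.79, 1.65 and 1.91 in diabetic samples and 2.18, 1.96 and 1.79 in normal samples, with a difference of -0.19 (SE 0.13). Loricrin (Lor), its main late component, measured 1.90, 2.13 and 2.13 in diabetic samples and 1.79, 1.96 and 2.01 in normal samples, with a difference of 0.13 (SE 0.12), with diabetic replicates 2 and 3 above the limit. The groups overlapped for both genes. Ivl was -0.09 without normal replicate 1, and Lor was 0.07 without normal replicate 1 and 0.21 without diabetic replicate 1. Crct1, a cysteine-rich gene of the cluster, measured 1.92, 1.79 and 1.95 in diabetic samples and 1.94, 1.60 and 2.02 in normal samples, with a difference of 0.04 (SE 0.13). Pglyrp3, a peptidoglycan recognition gene of innate defence, measured 1.54, 1.81 and 1.60 in diabetic samples and 1.70, 1.78 and 1.97 in normal samples, with a difference of -0.16 (SE 0.12). Both were at or below the limit on every array. Pglyrp3 was -0.09 without normal replicate 3 and -0.11 without diabetic replicate 1, and Crct1 turned to -0.09 without normal replicate 2.

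Genes of the fused type join an S100 domain to long repeats, and their products surround keratin in the upper epidermis and the hair follicle. Of 6 measured, 2 were higher and 4 lower in diabetic samples. Cornulin (Crnn) measured 2.11, 2.09 and 2.27 in diabetic samples and 2.10, 2.58 and 2.77 in normal samples, with a difference of -0.32 (SE 0.17, adjusted p 0.893 in limma). It was above the limit on 5 arrays, and normal replicates 2 and 3 lay above all others. The difference was -0.18 without normal replicate 3 and -0.52 without normal replicate 1. Repetin (Rptn) measured 1.24, 1.23 and 1.24 in diabetic samples and 1.47, 1.45 and 1.24 in normal samples, without overlap by a small margin, a difference of -0.15 (SE 0.10). Flg2, encoding filaggrin-2, measured 1.03, 1.42 and 1.16 in diabetic samples and 1.57, 1.30 and 1.40 in normal samples, with a difference of -0.22 (SE 0.12). Rptn and Flg2 were at or below the limit on all arrays. Leaving out diabetic replicate 1 gave -0.14 for Flg2, and leaving out diabetic replicate 2 gave -0.33, with an unadjusted p under 0.05.

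Trichohyalin (Tchh), which hardens the inner root sheath of the hair, was above the background limit on all 6 arrays. It measured 2.68, 2.64 and 2.86 in diabetic samples and 2.19, 2.87 and 2.93 in normal samples, with a difference of 0.07 (SE 0.19). Beside it, 3 of 10 hair follicle and cortex markers were above the limit throughout, with summed linear signals of 43.4 to 48.2 on the diabetic and 45.0 to 47.1 on the normal arrays; Tchh is itself among the 10. Its relative Tchhl1 measured 2.27, 2.08 and 2.07 in diabetic samples and 2.24, 2.06 and 2.19 in normal samples, with a difference of -0.02 (SE 0.12). Hornerin (Hrnr) measured 1.85, 2.38 and 2.06 in diabetic samples and 1.81, 2.09 and 1.81 in normal samples, with a difference of 0.19 (SE 0.15) that was 0.05 without diabetic replicate 2.

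S100a genes split evenly, 7 higher and 7 lower in diabetic samples, with a median difference of 0.01 and 0 of 14 at an unadjusted p under 0.05. The alarmin genes S100a8 and S100a9 encode the subunits of calprotectin, which neutrophils and activated keratinocytes release. S100a8 measured 1.76, 1.58 and 1.81 in diabetic samples and 1.71, 1.95 and 1.49 in normal samples, with a difference of -0.0024 (SE 0.13) under the limit throughout. S100a9 measured 2.09, 1.83 and 2.19 in diabetic samples and 1.82, 3.08 and 2.25 in normal samples. Normal replicate 2 stood apart from the other 5 arrays, and the difference of -0.34 (SE 0.25) was 0.0039 without it. On that array the linear signals of 15 neutrophil markers also summed to their highest value, 57.6, against 51.3 on both other normal arrays. Without Cxcl2, a chemokine gene, the 14 others summed to 47.1 on that array, the lowest of the normal arrays (47.4 and 47.8 on the others). By count, 4 of the 15 markers exceeded the limit on that array. The counts were 2 and 3 on normal replicates 1 and 3, and 1, 3 and 1 on the diabetic arrays. The part of neutrophils in the S100a9 signal was not tested. Of the 15 markers 1 exceeded the limit throughout and 10 on no array, Ly6g, Elane and Mpo among the latter.

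S100a7a, the mouse relative of psoriasin, measured 2.26, 1.88 and 2.06 in diabetic samples and 1.91, 2.10 and 1.79 in normal samples, with a difference of 0.14 (SE 0.14). S100a4, a gene of motile and mesenchymal cells, measured 1.88, 1.34 and 1.72 in diabetic samples and 1.30, 1.41 and 1.62 in normal samples, with a difference of 0.21 (SE 0.14). S100a6, encoding calcyclin, measured 1.93, 1.41 and 1.51 in diabetic samples and 1.34, 1.74 and 1.44 in normal samples, with a difference of 0.11 (SE 0.15). The groups overlapped for these genes, and the differences of S100a4, S100a6 and S100a7a were 0.09, -0.05 and 0.04 without diabetic replicate 1. Without diabetic replicate 2 they were 0.36, 0.22 and 0.23. S100a10, which pairs with annexin A2, measured 2.19, 1.85 and 1.66 in diabetic samples and 1.73, 1.93 and 1.95 in normal samples, with a difference of 0.03 (SE 0.14).

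S100a11 and S100a1 were the S100a genes above the background limit on all 6 arrays. S100a11, an annexin A1 partner, measured 2.40, 2.31 and 2.17 in diabetic samples and 2.56, 2.30 and 2.37 in normal samples, with a difference of -0.11 (SE 0.13). Its other probe set (10457640) differed by 0.02 (SE 0.16). S100a1, best known from muscle, measured 2.00, 2.12 and 2.57 in diabetic samples and 2.67, 2.32 and 2.20 in normal samples, with a difference of -0.17 (SE 0.17). The groups overlapped for both genes. S100a11 was -0.04 without normal replicate 1 and -0.05 without diabetic replicate 3, and S100a1 was -0.03, -0.05 and -0.34 without normal replicate 1, diabetic replicate 1 and diabetic replicate 3. The remaining members, S100a2, S100a3, S100a5, S100a13, S100a14 and S100a16, differed by between -0.16 and 0.21, and S100a3, at 0.21 (SE 0.14), had diabetic replicate 2 (2.20) as its only array above the limit.

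**Figure D5:**
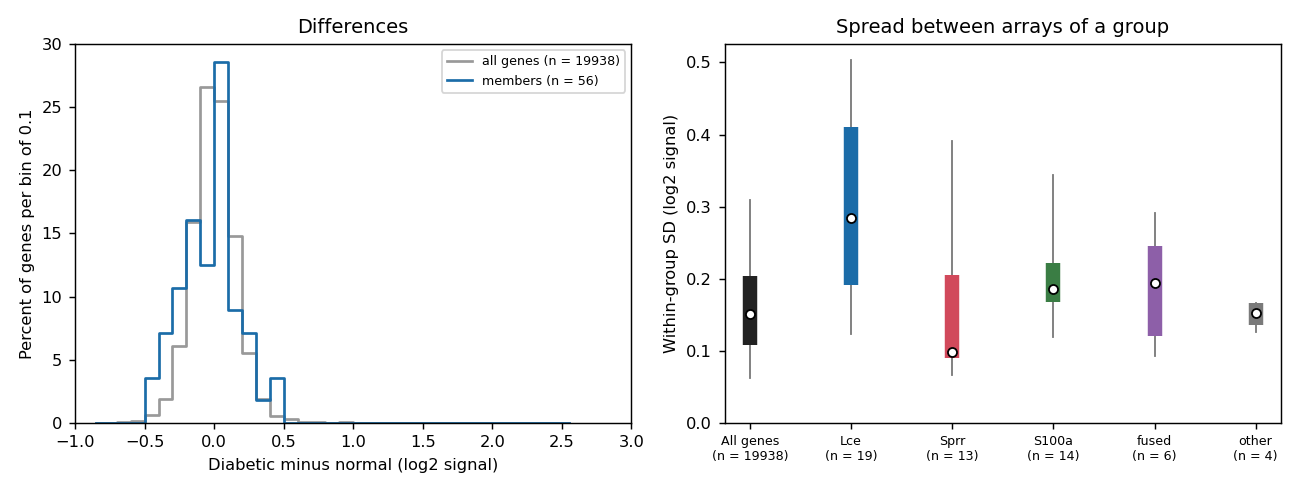
Left, share of genes (vertical axis, percent per bin of 0.1) by diabetic minus normal difference (horizontal axis, log2 signal) for all 19938 genes and the 56 members. Right, standard deviation between arrays of a group (pooled over both groups, log2 signal) for all genes and each family, with the median (circle), the middle 50% (thick bar) and the 5th to 95th percentile (thin line). The median is 0.28 for Lce members, 0.15 for all genes and 0.10 for Sprr members.

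Other genes of cornification were read from lists of known members, and none of those listed passed after adjustment. Of 21 measured genes of envelope cross-linking, scaffold and corneocyte proteins, 10 were higher and 11 lower, with a median of -0.0089 and 0 at an unadjusted p under 0.05. The transglutaminase gene Tgm1 differed by 0.21 (SE 0.14), the envelope-associated gene Cnfn by -0.25 (SE 0.15), Anxa1 by -0.20 (SE 0.11) and Krtdap, a secreted differentiation product, by -0.25 (SE 0.14). Of 15 proteases and inhibitors of filaggrin processing and desquamation 11 were higher and 4 lower, with a median of 0.11 and 0 at that threshold. Among these the calpain gene Capn1 differed by 0.27 (SE 0.13), the kallikrein gene Klk14 by -0.20 (SE 0.11), without overlap, and Casp14, the caspase of cornification, by 0.20 (SE 0.15). The groups did not overlap for 2 of the 15, 1 higher and 1 lower, against 10.7% of all genes. Of 12 barrier lipid genes 7 were higher and 5 lower, with a median of 0.02 and 0 at that threshold.

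Regulators of the complex, 22 measured, had 10 members higher and 12 lower and a median of -0.0079. At an unadjusted p under 0.05 in limma, 1 was higher and 1 lower, beside 2.64% and 2.92% of all genes. The groups did not overlap for 2 of the 22, both lower, against 10.7% of all genes. The corepressor gene Hr, needed for hair cycling, measured 2.19, 2.40 and 2.53 in diabetic samples and 1.77, 2.22 and 1.96 in normal samples, with a difference of 0.39 (SE 0.15, adjusted p 0.839 in limma). Trp63, the master regulator of stratified epithelium, measured 1.62, 1.79 and 2.04 in diabetic samples and 2.24, 2.01 and 2.13 in normal samples, with a difference of -0.31 (SE 0.14, adjusted p 0.887 in limma). The groups overlapped for both, and of the 6 arrays Hr exceeded the background limit on 4 and Trp63 on 2. Junb, an AP-1 subunit above the limit on all arrays, measured 2.41, 2.34 and 2.18 in diabetic samples and 2.60, 2.46 and 2.74 in normal samples without overlap, a difference of -0.29 (SE 0.13, adjusted p 0.893 in limma). Of 10 S100 partners and receptors 6 were higher and 4 lower, with a median of 0.05 and 0 at that threshold, and Anxa2 differed by 0.21 (SE 0.14). The 4 S100 genes outside the complex, S100b, S100g, S100z and S100pbp, which encodes an S100-binding protein, differed by between -0.18 and -0.04.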

How the data were processed

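The authors deposited log2 probe set signals for 35556 probe sets on 6 whole-transcript arrays. The submitters' processing notes name Partek. The treatment of background and scale, not given in the sources used here, stays unknown. The log base was taken from the values, whose maxima would exceed a 16-bit scanner under another base. The number of arrays limits the precision. The platform annotation gave gene names: 21789 had 1 symbol, 1621 several and 12146 were not listed. Symbols were updated by gene ID (GRCm38.p6), which matched 21698. Groups came from titles.

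The test was limma 3.58.1 under R 4.3.3, a linear model with group as its only term and moderated variances that follow an intensity trend, without a filter on dim genes, and Benjamini-Hochberg adjustment over 19938 genes. The script was checked on simulated data. All 56 members were kept. Values per array were given for the named single genes, 7 S100a genes, members with an unadjusted p under 0.05 or a ratio of at least 5 to 4, members above the limit on all arrays and the brightest of a subfamily; Sprr2d, Lce1d, Lce1f and S100a3 were added after their values were seen. For each list up to 4 genes with the smallest p could be named. The members and lists were chosen with earlier results of these data known. Alternatives covered scaling, variance model, array weights, dim-gene filters, probe set handling, a replicate block and each array left out; leaving out each marker of a list, and each array for every member, was added after the data were seen. Same-numbered arrays did not deviate together across genes (correlations -0.018, 0.0078 and 0.014), so numbers were not taken as pairs.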

Additional observations from a re-analysis of the deposited data

How the results depend on the processing

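Across every alternative run, 0 members passed the adjusted threshold. The count of all genes passing ran from 0 to 2 with 1 array left out (1 without diabetic replicate 3, 2 without diabetic replicate 2). Members at an unadjusted p under 0.05, 5 as reported, numbered 3 to 9 with 1 array left out, 7 with the replicate block, 4 of them shared with the 5, 3 in a fit over all probe sets (added after the data were seen), 1 of 26 without the dimmer 50% of genes, 3 of 28 among genes above the limit on at least 1 array, and 0 when a 1.5-fold difference was also asked. The share of all genes in each of these fits is not given here, so the counts cannot be set against it. Members higher in diabetic samples numbered 13 of 26 without the dimmer 50% of genes and 12 of 28 under the filter by limit. Under the filter by limit the median difference was -0.085 for members and 0.027 over all genes kept. A gene can pass that filter through arrays of 1 group only, as Lce3b and Lce1h did. Counts and medians under it are therefore shaped by the choice of genes, and no conclusion is drawn from them. With the 99th percentile as limit 0 members stayed above it on all arrays. With 1 array left out 20 of 56 members changed sign in at least 1 fit (4 to 9 members in each). S100a8 was 0.023 after quantile normalization and ran from -0.11 to 0.11 with 1 array left out. Other ranges with 1 array left out, among members given by sample above, were S100a9 -0.62 to 0.0039, S100a10 -0.12 to 0.15, S100a6 -0.046 to 0.23, Lce1j -0.35 to 0.28, Lce1k -0.39 to 0.046, Tchh -0.17 to 0.20, Tchhl1 -0.088 to 0.016, Crct1 -0.089 to 0.12, Lce3c -0.68 to 0.13, Lce1f -0.47 to 0.070, Lce1d -0.14 to 0.37 and Sprr2d -0.21 to 0.34. The cause was not tested. Most members lie near background, where these signals do not bound differences in RNA, and 3 arrays a group limit every comparison.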

Other observations

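Between the outermost members on the chromosome lie 6 further measured genes that the choice of symbols leaves out, looked at after the data were seen. None was at an unadjusted p under 0.05 in limma, and 5 of the 6 were lower in diabetic samples. Of the 6, 5 were above the background limit on no array and 0 on all arrays. The peptidoglycan recognition gene Pglyrp4 measured 1.65, 2.32 and 1.72 in diabetic samples and 2.08, 1.73 and 2.49 in normal samples, with a difference of -0.20 (SE 0.21) with overlap. The keratinocyte proline-rich gene Kprp differed by -0.11 (SE 0.14), Prr9 by -0.097 (SE 0.14) and Lelp1 by -0.048 (SE 0.12). Smcp, a sperm mitochondrial gene, differed by -0.18 (SE 0.11), and its groups did not overlap, as for 10.7% of all genes. The sixth, Tdpoz8, was higher and had the largest difference of the 6, 0.22 (SE 0.14), with overlap. Normal replicate 2 was the array with the highest signal for 15 of the 56 members and for 16.8% of all genes, and diabetic replicate 2 for 5 members and 16.5% of all genes.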
